A study of Mus musculus with 6 samples.

Results

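CD28 family members and checkpoint receptors are surface proteins that raise or restrain the response of an activated T cell. The genes described here were the 10 fixed by symbol in the deposited table of 14868 genes: Cd28, Icos, Ctla4, Pdcd1, Lag3, Havcr2, Tigit, Btla, Cd200 and Cd274. All 10 had a row. They were named as costimulatory and inhibitory receptors, but Cd274 (PD-L1) and Cd200 encode ligands, whose receptors are PD-1 and CD200R. The rule names the genes by symbol and uses no measured value, although it was written with earlier results of these data known. Expression was compared between 3 libraries of wild-type (WT) and 3 of Ikzf4-/- cells, from mice with a C57BL/6J background that lack Ikzf4, the gene of the Ikaros-family transcription factor Eos. Both groups were naïve CD4+ T cells driven towards T helper 2 (Th2) cells for 72 h with 10 ng/mL IL-4 and 10 µg/mL of an antibody to interferon gamma, on plates that carried antibodies to CD3 (5 µg/mL) and to CD28 (2 µg/mL). The CD28 protein was therefore engaged by antibody in every culture of both genotypes. The age and sex of the mice, the cells in which Ikzf4 was deleted, and whether replicates came from separate mice or cultures are not given in the sources used here, so p-values measure the spread between these libraries, which may be technical.

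As background, CD28 binds CD80 and CD86 on antigen-presenting cells and supplies the signal that, with the T cell receptor, starts proliferation and cytokine production, and ICOS does so later through its own ligand. CTLA-4 binds the same ligands as CD28 with higher affinity and restrains the cell. PD-1 and BTLA recruit tyrosine phosphatases after binding PD-L1 or PD-L2, and HVEM. LAG-3, TIGIT and TIM-3, the protein of Havcr2, are inhibitory receptors of other families that rise on activated T cells, and activated T cells also display PD-L1 and CD200 themselves.

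In Ikzf4-/- cells Lag3 fell to 0.660 of its WT level and Cd274 rose to 1.32 times its WT level, and these were the only members of the 10 that passed the test. The other 8 were not called. In a linear model fitted with limma to log2(normalized read count + 1) over all 14864 genes tested, with Benjamini-Hochberg adjustment and a threshold of 0.05, 1.77% of genes were called, 1.2% lower and 0.572% higher. These were 178 lower and 85 higher genes (154 and 115 when libraries were scaled to equal totals), and the sum of 263 moved to 20, 48 or 112 without Ikzf4-/- replicate 3, 1 or 2 and to 75 or 523 without WT replicate 2 or 3. The 10 members had 1 lower and 1 higher call. The fitted change was below 0 for 6 members and above 0 for 4, with a median log2 change (log2 of the fold, Ikzf4-/- over WT) of -0.07, against 0.00 over all genes tested, and a median size of 0.19 regardless of sign, against 0.11. WT and Ikzf4-/- values did not overlap for 4 members, Lag3 and Tigit lower and Btla and Cd274 higher, where 23.1% of all tested genes did not overlap (12.2% lower and 11% higher). An unadjusted p under 0.05 was reached by 4 members, Ctla4, Lag3, Btla and Cd274, and by 18.1% of all tested genes. Lag3 and Cd274 were also under 0.05 in the authors' deposited table, where 6.34% of the genes with an adjusted p-value were.

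**Figure D1:**
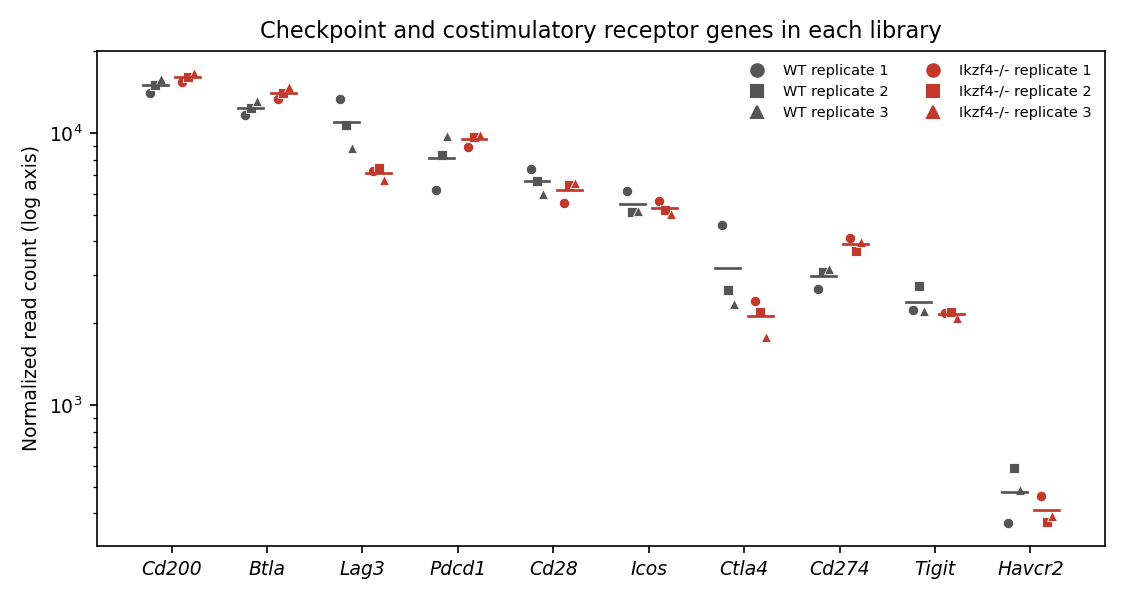
Normalized read count (log axis) of each of the 10 genes in each library, in order of WT mean. Grey marks are WT and red marks Ikzf4-/-, the marker shape gives the replicate number, and short lines are group means. Lag3 is lower and Cd274 higher in every Ikzf4-/- library than in any WT library, and the circle of WT replicate 1 lies apart for Ctla4 and Pdcd1.

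**Figure D2:**
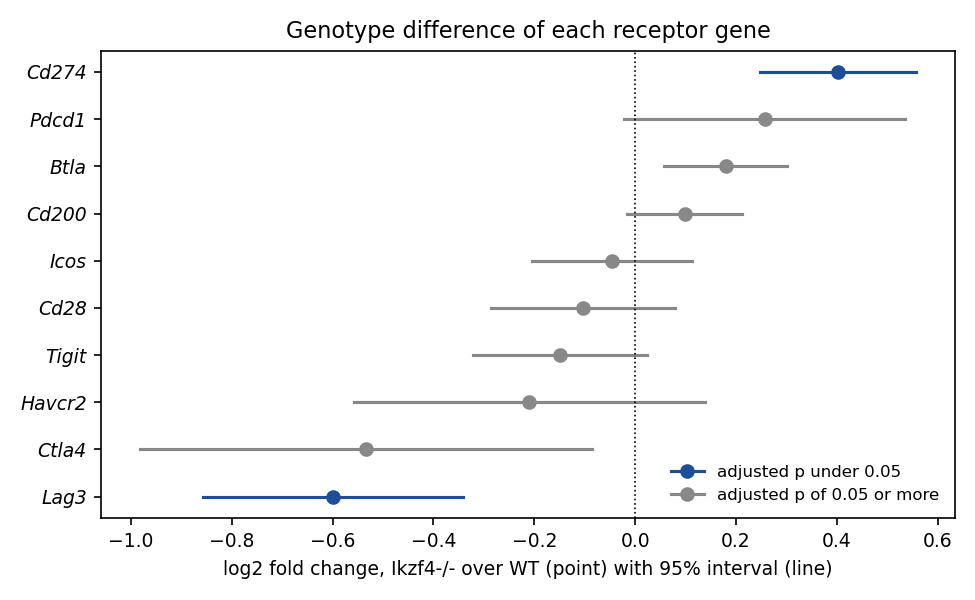
Log2 fold change, Ikzf4-/- over WT, of each gene with its 95% interval from limma. Blue marks Lag3 and Cd274, whose adjusted p-value was under 0.05. The widest interval is that of Ctla4, from -0.98 to -0.09.

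The libraries matched their labels: Ikzf4 was at 483 to 756 in WT and 10.5 to 38.2 in Ikzf4-/- libraries. The reads implied by the values were 34701390 to 40604346 per library. WT replicate 1 differed most from the other WT libraries. The chi-square of the implied reads over its degrees of freedom was 14.2 against WT replicate 2 and 18.8 against WT replicate 3. Between WT replicates 2 and 3 it was 7.89. WT replicate 1 was the highest or lowest of the 3 WT libraries for 9 of the 10 members and for 73.8% of all tested genes. Any library of 3 is outermost for most genes, so these shares alone do not set it apart. The members' results are given with and without WT replicate 1 where it moved a value by over 1.5 times or changed a sign or a call. The CD4 T cell genes Cd4, Cd3e, Cd3d, Cd3g, Trac and Cd2 were at 6428 or more in every library. The Th2 markers Il4, Il13, Il5 and Gata3 were detected in all 6 but moved with genotype. Il4 and Il13 fell in Ikzf4-/- cells (log2 change -0.87 and -0.82, limma adjusted p = 0.0144 and 0.0450), a call that Il4 kept in 5 and Il13 in 1 of 6 fits with a library left out, and Il5 (-1.24, 0.0529) and Gata3 (-0.24, 0.146) were not called by limma. The authors' deposited table called all 4 of these Th2 markers lower. The part of these markers in the results below was not tested. Of other cells, Cd8a and Cd8b1, of CD8 T cells, summed to 236 to 423 in WT and 232 to 374 in Ikzf4-/- libraries, where Cd8a ran from 33.3 to 208 over the 6 libraries and Cd8b1 from 179 to 215. Cd79a and Cd79b, of B cells, summed to 51.1 to 83.6 in WT and 58.6 to 90.4 in Ikzf4-/- libraries, and Itgax and Zbtb46, of myeloid and dendritic cells, to 79.8 to 104 and 103 to 131. Most of the latter sum was Zbtb46, with means of 83.6 and 104 (log2 change 0.30, limma adjusted p = 0.456). Itgax had means of 10.8 and 10.2 (-0.08, 0.957). The other 3 B cell, 5 myeloid and 3 NK cell markers of the lists were not analysed here. In bulk RNA, fewer cells of a type and less RNA per cell cannot be told apart.

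Levels of different genes were compared per kilobase of exon, using the union of exons in GENCODE M21. In WT cells Lag3 had the highest level, 5202 ± 1094 normalized reads per kb (SD, n = 3), and Cd200 (4512 ± 259), Pdcd1 (4184 ± 926) and Btla (3659 ± 222) followed. Each of these 4 overlapped its neighbour in the order. Tigit (2616 ± 320.2) lay between them and Icos (1600.1 ± 166) without overlapping either. Icos, Ctla4 (1371 ± 520.2) and Cd28 (1088 ± 114) overlapped from one to the next, Cd274 lay lower (821 ± 73.1) and Havcr2 lowest (177 ± 40.7). Averaged over the 6 libraries, 6 of the 10 stood above the 90th percentile of the 14836 genes with a length, and Havcr2 stood at the 49.96th, near the median gene. In Ikzf4-/- cells Lag3, at 3387 ± 173, came after Pdcd1 (4918 ± 266), Cd200 (4828 ± 177) and Btla (4142 ± 211).

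Several members lie close to each other in the genome (positions are on GRCm38). Cd28 (chromosome 1, 60716800 to 60773359), Ctla4 (60887000 to 60915832) and Icos (60977927 to 61000320) lie in this order on the plus strand, with gaps of 113640 and 62094 bp. Of the tested genes, 3 lie between Cd28 and Ctla4 and 0 between Ctla4 and Icos. On chromosome 16, Btla (45224315 to 45257670, plus strand) and Cd200 (45382135 to 45409053, minus strand) are 124464 bp apart, and Tigit (43648867 to 43664146, minus strand) lies farther off. Cd274 (chromosome 19, 29367455 to 29388095, plus strand) is followed after 22823 bp by Pdcd1lg2, the gene of PD-L2. Lag3 (chromosome 6, 124904361 to 124911705, minus strand) lies 16139 bp from Cd4 on the same strand. Pdcd1 is at 94038305 to 94052553 on chromosome 1 (minus strand) and Havcr2 at 46454935 to 46481255 on chromosome 11 (plus strand). An antisense gene, AC119228.1, shares exon sequence with Cd274 in the annotation. It had no row in the deposited table, so no value of it was seen. Whether reads were counted by strand is not given in the sources used here, so reads of the pair cannot be told apart. Rpl18-ps1 and Gm37039 lie within the bounds of Ctla4 and Icos without sharing exons, and neither exceeded 28.1 in any library.

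For 7 of the 10 members a promoter sequence was found in RefSeq (GRCm38.p6), and the 250 bases before the start are shown for 3: Cd274, which rose and is the only called gene with an entry, Pdcd1, which encodes its receptor, and Ctla4, the uncalled member with the largest fitted change. The start is that of RefSeq, which for Ctla4 lies inside the wider GENCODE bounds given above. Sequences read 5′ to 3′ on the gene's strand, and capitals mark matches to the searched motifs.
Cd274 (chr19:29367188-29367437, plus strand): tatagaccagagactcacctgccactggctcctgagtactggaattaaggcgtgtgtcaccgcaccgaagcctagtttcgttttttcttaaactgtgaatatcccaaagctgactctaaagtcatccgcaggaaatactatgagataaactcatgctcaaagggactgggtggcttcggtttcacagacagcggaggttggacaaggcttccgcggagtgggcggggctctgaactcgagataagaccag
Pdcd1 (chr1:94052554-94052803, minus strand): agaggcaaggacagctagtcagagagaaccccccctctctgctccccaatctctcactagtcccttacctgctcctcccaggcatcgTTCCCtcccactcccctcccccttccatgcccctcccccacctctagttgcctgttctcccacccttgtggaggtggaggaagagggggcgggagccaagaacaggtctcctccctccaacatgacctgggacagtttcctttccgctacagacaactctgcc
Ctla4 (chr1:60908775-60909024, plus strand): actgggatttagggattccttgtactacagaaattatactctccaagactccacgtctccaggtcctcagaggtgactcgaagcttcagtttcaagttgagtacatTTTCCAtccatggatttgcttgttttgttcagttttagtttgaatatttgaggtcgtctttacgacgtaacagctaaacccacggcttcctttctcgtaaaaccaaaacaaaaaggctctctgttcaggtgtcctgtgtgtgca
The motifs, searched on both strands, were the Ikaros-family core GGGAA, found in 56.3% of all 32536 promoters of this length, an NFAT motif TGGAAA (18.6%), an AP-1 motif TGANTCA (6.73%), an NR4A motif AAGGTCA (4.09%) and a STAT motif TTCNNNGAA (7.04%). The Ikaros-family core was found in 2 of the 7 members, Pdcd1 (shown above, on the strand opposite to the gene, 163 to 159 bases before the start) and Cd200. The Ctla4 match is to the NFAT motif, 144 to 139 bases before the start, also on the opposite strand. Havcr2 had an AP-1 match, and Cd274, Btla and Tigit had none of the searched letters in this window. A match describes letters and not binding, which was not measured.

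Among the costimulatory receptors, neither Cd28 nor Icos was called. Cd28 had normalized read counts of 7365, 6652 and 5969.6 in WT replicates 1 to 3 and of 5535, 6459 and 6588 in Ikzf4-/- replicates 1 to 3, and the groups overlapped. Its means were 6662 ± 698 and 6194 ± 574 (SD, n = 3 each), and its log2 change was -0.10 with a 95% interval from -0.29 to 0.08 (limma adjusted p = 0.557). This small value moved to -0.03 without WT replicate 1, to -0.02 without Ikzf4-/- replicate 1 and to -0.18 without WT replicate 3. Icos, which sustains helper T cell responses after CD28 has acted, was at 6146, 5136 and 5183 in WT and at 5636, 5224 and 5050.2 in Ikzf4-/- libraries. The groups overlapped, and the log2 change was -0.05, with an interval from -0.20 to 0.11 (limma adjusted p = 0.791). Without WT replicate 1, the highest library for this gene, the log2 change was 0.04, and in the other 5 fits that left a library out it lay between -0.09 and -0.01.

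Ctla4, the inhibitory counterpart of Cd28, was spread widely in WT cells. It was at 4584, 2652 and 2349.6 in WT and at 2417, 2193 and 1777 in Ikzf4-/- libraries. WT replicate 1 was far above the other WT libraries, and Ikzf4-/- replicate 1 exceeded WT replicate 3, so the groups overlapped. The log2 change of -0.53 (SE 0.20) had an adjusted p of 0.197 by limma and was not called, although its unadjusted interval, from -0.98 to -0.09, did not include 0. Within WT cells replicate 1 lay 0.88 above the mean of the other 2 on the log2 scale. Without it the log2 change of Ctla4 was -0.24 (limma adjusted p = 0.325). The authors' deposited table gave -0.59 (adjusted p 0.381). Foxp3, the defining gene of regulatory T cells, which express CTLA-4, was at 36.2, 97.0 and 42.7 in WT and at 43.4, 31.4 and 48.2 in Ikzf4-/- libraries (log2 change -0.39, limma adjusted p = 0.622). The other genes of the regulatory T cell list were not called either. Ikzf2 was at 44.7, 169 and 96.1 in WT and at 79.7, 96.3 and 162 in Ikzf4-/- libraries (0.25, 0.802). Tnfrsf4 was far higher than Foxp3 and Ikzf2, at 12077 to 14213 in WT and 10606 to 12458 in Ikzf4-/- libraries (-0.15, 0.296). The part of these genes in the Ctla4 values was not tested.

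Because CD28 and CTLA-4 share ligands and these 3 genes lie close together, their ratios within each library were also compared. Ctla4 reached 0.622, 0.399 and 0.394 of the Cd28 value in WT and 0.437, 0.340 and 0.270 in Ikzf4-/- libraries. These overlapped, and the difference in log2 ratio was -0.43 (exact permutation test, two-sided, p = 0.3; adjusted over the 3 ratios, 0.45). The ratio of Icos to Cd28 differed by 0.06 (exact permutation p = 0.9; adjusted, 0.9). The ratio of Icos to Ctla4 was 1.34, 1.94 and 2.21 in WT and 2.33, 2.38 and 2.84 in Ikzf4-/- libraries, so that all 3 Ikzf4-/- libraries were above all 3 WT libraries. The log2 difference was 0.49, and its exact permutation p of 0.1 (adjusted, 0.3) is the smallest that 3 against 3 libraries can give, so the design could not reach 0.05. Without WT replicate 1 this difference was 0.28 and that of Ctla4 to Cd28 was -0.21, and without Ikzf4-/- replicate 3 the latter was -0.26.

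**Figure D3:**
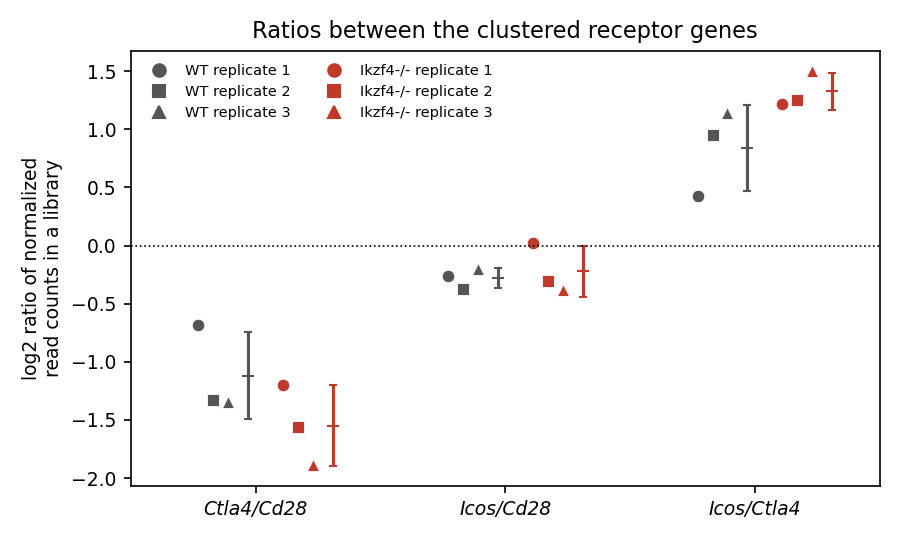
Log2 ratio of normalized read counts within each library for Ctla4 to Cd28, Icos to Cd28 and Icos to Ctla4. Grey is WT, red Ikzf4-/-, marker shape gives the replicate, and bars are mean ± SD over 3 libraries. Only the ratio of Icos to Ctla4 separates the genotypes, by 0.49 in the mean.

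Lag3, whose protein binds MHC class II in competition with CD4, was the member that fell. It was at 13391, 10728 and 8797 in WT and at 7249, 7444 and 6736 in Ikzf4-/- libraries. Every Ikzf4-/- library was below every WT library, and the Ikzf4-/- libraries lay close together while the WT libraries spread. The means were 10972 ± 2307 and 7143 ± 366 (SD, n = 3 each), a log2 change of -0.60 (SE 0.12, interval from -0.86 to -0.34, limma adjusted p = 0.0355). The authors' deposited table gave a log2 change of -0.62 (adjusted p 0.0152). Cd4, its genomic neighbour, had a log2 change of 0.08 (limma adjusted p = 0.383). Without WT replicate 1 Lag3 was at -0.44 and called (limma adjusted p = 0.0102). It was not called without WT replicate 2 (0.0830) or without Ikzf4-/- replicate 1 (0.0903), 2 (0.0839) or 3 (0.137), where its log2 change was -0.56 to -0.63.

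Pdcd1 and Btla, whose proteins carry tyrosine motifs that recruit phosphatases, both had fitted changes above 0 without a call. Pdcd1 was at 6185, 8305 and 9736 in WT and at 8913, 9669 and 9892.5 in Ikzf4-/- libraries. WT replicate 3 lay within the Ikzf4-/- range and WT replicate 1 was the lowest of the 6. The log2 change was 0.26, with an interval from -0.02 to 0.54 (limma adjusted p = 0.317), and it moved to 0.08 (0.681) without WT replicate 1 and to 0.40 (0.0620) without WT replicate 3. Btla was at 11672, 12428 and 13182 in WT and at 13368, 14029 and 14797 in Ikzf4-/- libraries, higher in each Ikzf4-/- library than in any WT library. Its log2 change of 0.18 (SE 0.06, interval from 0.06 to 0.30) had an adjusted p of 0.125 by limma and of 0.0563 in the authors' deposited table, above the threshold in both.

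Tigit and Havcr2 had fitted changes below 0 that were not called. Tigit, which competes with the activating receptor CD226 for the poliovirus receptor, was at 2242, 2744 and 2227 in WT and at 2187, 2199.6 and 2089 in Ikzf4-/- libraries. The groups did not overlap, but the gap between the closest libraries was small beside the spread of the WT values. The log2 change was -0.15, with an interval from -0.32 to 0.02 (limma adjusted p = 0.349), and without WT replicate 2 it was -0.05. Havcr2, a marker of Th1 rather than Th2 cells, was at 368, 589 and 486 in WT and at 465, 373 and 393 in Ikzf4-/- libraries. The lowest and the highest of the 6 values were both WT, and the log2 change was -0.21, with an interval from -0.56 to 0.14 (limma adjusted p = 0.530). It was -0.39 without WT replicate 1 and -0.05 without WT replicate 2, the lowest and the highest library.

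Of the ligand genes, Cd274 rose and Cd200 was not called. Cd274 was at 2671, 3093 and 3159 in WT and at 4113, 3683 and 3975 in Ikzf4-/- libraries, so that the lowest Ikzf4-/- library was above the highest WT library. The means were 2974 ± 265 and 3924 ± 219 (SD, n = 3 each), a log2 change of 0.40 (SE 0.07, interval from 0.25 to 0.56, limma adjusted p = 0.0258). The authors' deposited table also gave a log2 change of 0.40 (adjusted p 1.90e-05). Without WT replicate 1 the change was 0.33 and called (limma adjusted p = 0.0159). The call was lost without WT replicate 2 (0.0559) or without Ikzf4-/- replicate 1 (0.0823) or 3 (0.104), where the log2 change was 0.37 to 0.43. Values of Itgax and Zbtb46, markers of myeloid and dendritic cells, which also express PD-L1, were given above, and their part in this result was not tested. Cd200 was the most abundant member by count, at 14073, 15095 and 15782 in WT and 15446.5, 16032 and 16619 in Ikzf4-/- libraries. The groups overlapped, and the log2 change of 0.10 had an interval from -0.02 to 0.21 (limma adjusted p = 0.349), and without WT replicate 1 it was 0.05.

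**Figure D4:**
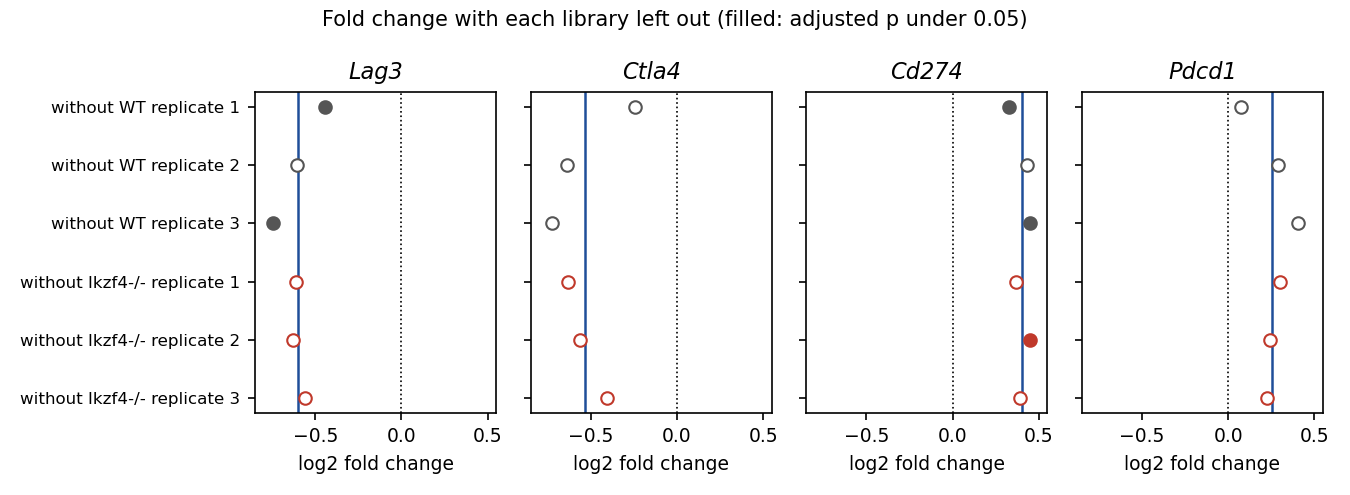
Log2 fold change of Lag3, Ctla4, Cd274 and Pdcd1 with each library left out. The blue line is the value over all 6 libraries, grey points leave out a WT and red points an Ikzf4-/- library, and filled points had an adjusted p under 0.05. Leaving out WT replicate 1 moves Ctla4 to -0.24 and Pdcd1 to 0.08, and Lag3 is called in 2 and Cd274 in 3 of the 6 fits.

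The spread behind these calls differed between members. The residual SD on the log2 scale was 0.40 for Ctla4, 0.27 for Havcr2, 0.24 for Pdcd1 and 0.22 for Lag3, against a median of 0.12 over all genes tested. It was 0.07 for Cd200 and 0.08 for Btla.

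Genes that act with the members were taken from 5 lists: ligands, other receptors of the same kind, signalling partners, turnover and trafficking, and transcriptional regulators. Of 61 genes, 57 were tested, and limma called 3 higher and 0 lower. At an unadjusted p under 0.05 there were 19 higher and 9 lower, and the authors' deposited table called 4 in each direction. Over all genes the shares were 1.77% called by limma, 18.1% at an unadjusted p under 0.05 and 6.34% in the authors' deposited table. The ligand list leaves out the members Cd274 and Cd200 and includes the receptor gene Cd200r1. None of its 10 tested genes was called by limma or in the authors' deposited table, and their median log2 change was -0.04. At an unadjusted p under 0.05 in limma, Cd80 and Pdcd1lg2 were higher and Nectin2 and Cd200r1 lower. Pdcd1lg2, the second PD-1 ligand and the neighbour of Cd274, had means of 2693 ± 250.1 and 3044 ± 201 (SD, n = 3 each) and a log2 change of 0.18 (limma adjusted p = 0.238), or 0.10 without WT replicate 1. Cd80, a ligand shared by CD28 and CTLA-4, was low, at 56.4, 113 and 163 in WT and 141, 183 and 195 in Ikzf4-/- libraries (log2 change 0.75, limma adjusted p = 0.245), and its change was 0.33 without WT replicate 1, the lowest library. Cd86, the other shared ligand, was at 25.2 or less in every library. Cd200r1, the gene of the CD200 receptor, had a log2 change of -0.53 (limma adjusted p = 0.141), and Nectin2, a TIGIT ligand, of -0.52 (0.135), and for both the groups did not overlap. The others were not called: Pvr, the main TIGIT ligand, at -0.10, Tnfrsf14 (HVEM, the BTLA ligand) at -0.07, Icosl at -0.29, and the TIM-3 ligand genes Lgals9 at -0.02 and Ceacam1 at 0.14. For Lgals9 and Ceacam1 the sign changed in some fits, among them for Lgals9 the scaling to equal library totals.

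Among 8 other receptors of the same kind, Cd5 was called and rose, with 7 of 8 fitted changes above 0 and a list median of 0.24. Cd5, a receptor that dampens T cell receptor signalling, was at 7926, 8293 and 8926 in WT and at 10617.5, 9749.9 and 11189.5 in Ikzf4-/- libraries, with no overlap (log2 change 0.33, SE 0.06, limma adjusted p = 0.0306). It kept its call in 3 of 6 fits with a library left out, and lost it without WT replicate 2 (0.0794) or Ikzf4-/- replicate 1 (0.0894) or 3 (0.116). Its relative Cd6, which lies close by with 1 tested gene between them, had a log2 change of 0.15 (0.238). Cd226, the activating competitor of TIGIT, was at 0.25 (0.209), Cd96 at 0.23 (0.171) and Vsir, the gene of the inhibitory receptor VISTA, at 0.27 (0.174). For each of these, WT replicate 1 was the lowest WT library. Its log2 value minus the mean of the other WT libraries was -0.22 for Cd226, -0.18 for Cd96 and -0.38 for Vsir. Fits without it are not given for these genes. Cd244a, the list gene with a fitted change below 0, was low, with means of 36.7 in WT and 16.2 in Ikzf4-/- libraries (log2 change -1.19, limma adjusted p = 0.347). The adhesion receptor gene Cd2, from the list of CD4 T cell markers, fell from 8924 ± 1004 to 6683 ± 298 (SD, n = 3 each, log2 change -0.41, limma adjusted p = 0.0258), and was not called without Ikzf4-/- replicate 1 (0.0791), 2 (0.0840) or 3 (0.0792).

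Of 15 signalling partners limma called 0, with a median log2 change of -0.03. At an unadjusted p under 0.05 there were 3 higher and 4 lower, and the authors' deposited table called Akt1 (log2 change -0.22, adjusted p = 0.00691) and Pik3cd (-0.19, 0.0377), both kinases downstream of CD28. In limma these had an adjusted p of 0.0583 and 0.105. Ptpn6 and Ptpn11, the phosphatases SHP-1 and SHP-2 that PD-1 and BTLA recruit, had log2 changes of -0.02 (0.922) and 0.13 (0.359), and Pik3r1, a subunit of the kinase that binds the CD28 and ICOS tails, of -0.01 (0.964). The signs of Ptpn6 and Pik3r1 changed under equal library totals. None of the 10 turnover and trafficking genes was called by limma or in the authors' deposited table (at an unadjusted p under 0.05, 3 higher and 0 lower). Among them Rc3h1, whose protein Roquin-1 degrades Icos mRNA, was at 0.22 (0.161), Lrba, which keeps CTLA-4 from degradation, at 0.09 (0.480), and Cmtm6, which stabilises PD-L1, at -0.09.

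Of 14 transcriptional regulators Nr4a2 and Bcl6 rose and none was called lower, with a list median of 0.10. Nr4a2, induced by T cell receptor signalling, was at 1037, 1424 and 1537 in WT and at 1850.1, 1993 and 1971 in Ikzf4-/- libraries (log2 change 0.56, limma adjusted p = 0.0474). Bcl6, the factor of follicular helper cells, rose from 448 ± 74.9 to 707 ± 45.3 (SD, n = 3 each, log2 change 0.67, limma adjusted p = 0.0291). Without Ikzf4-/- replicate 1, 2 or 3 neither was called (0.0981, 0.145 and 0.158 for Nr4a2, 0.0650, 0.0937 and 0.111 for Bcl6), and Nr4a2 was not called without WT replicate 2 either (0.0755). Prdm1 and Maf, which drive several inhibitory receptor genes in T cells, had log2 changes of -1.12 (limma adjusted p = 0.0588) and 0.33 (0.290). Prdm1 was low, at 77.6 to 108 in WT and 30.3 to 54.4 in Ikzf4-/- libraries, and Maf had means of 183 and 233. Batf was at 6744, 3772 and 3875 in WT and 3220.0, 2415 and 2426 in Ikzf4-/- libraries, with no overlap (log2 change -0.79, 0.0634), and was called without WT replicate 1 (-0.52, 0.0203) or 3 (-0.92, 0.0379). Tox, an inducer of inhibitory receptors in exhausted T cells, was at 0.17 (0.209) and Nfatc1 at 0.18 (0.115). The authors' deposited table called Prdm1 and Irf4 lower and Nr4a2, Bcl6 and Nfatc1 higher.

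**Figure D5:**
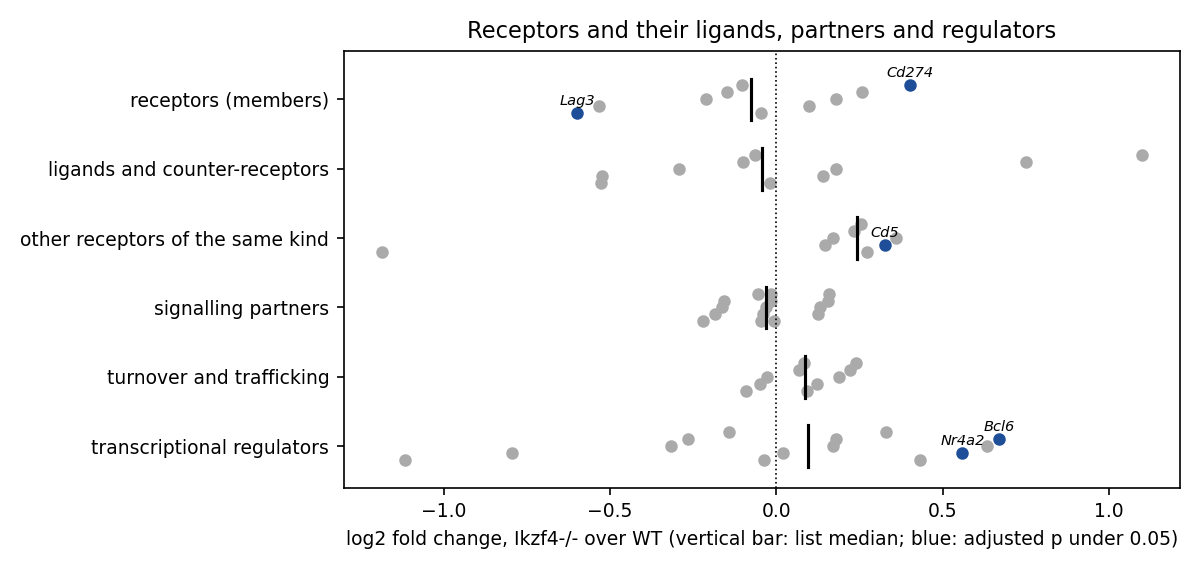
Log2 fold change, Ikzf4-/- over WT, of each tested gene of the receptor set and of the 5 lists of ligands, other receptors, signalling partners, turnover genes and transcriptional regulators (offsets within a row only separate the points). Vertical bars are list medians, from -0.07 for the receptor set to 0.24 for the other receptors, and blue points with names passed the limma threshold.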

How the data were processed

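The members and gene lists were chosen with earlier results of these data known. The 6 sample columns hold a never-negative signal deposited by the authors, read as read counts divided by 1 size factor per library, since 100% of the values of each library were whole multiples of 1 step. The log2 fold changes, p-values and adjusted p-values in the same table are the authors' deposited values. The submitters' processing notes name Trimmomatic 0.36, STAR 2.5.2b and DESeq2, with GRCm38 and mm10. The tool that counted reads, and whether by strand, are not given in the sources used here. The steps of Ikzf4-/- replicates 1 and 3 were too near 1 to be accepted as recovered reads, so no count test was run. The implied reads per library and the chi-square between replicates take each step as 1 read and are descriptive only. Genes with a mean of at least 10 (14864 of 14868) were fitted with limma 3.58.1 (R 4.3.3; eBayes with trend; genotype as the only term) on log2(value + 1), two-sided, which understates changes of low genes. Ratios used exact permutation in scipy 1.17.1. The code was tested on simulated data. Lengths and positions came from GENCODE M21 by Ensembl identifier for 14836 genes. All 10 members and each called, ligand or directly partnering list gene were named by rule. Cd6, Cd226, Cd96, Vsir, Cd244a, Akt1, Pik3cd and Irf4 were named after their values were seen. No pair of replicates agreed within sampling noise (chi-square over its degrees of freedom, 7.49 to 18.8). Alternatives were other scalings, filters and pseudocounts (0.1 and 10), array weights, a replicate block, leaving out each library, and the authors' table.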

Additional observations from a re-analysis of the deposited data

How the results depend on the processing

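Over all 6 libraries 263 genes were called. Quantile, upper quartile or equal-total scaling, no filter, at least 10 required in each library, or either other pseudocount gave 256 to 283. Under each of these, with array weights and in the authors' deposited table, Lag3 (lower) and Cd274 (higher) were the only called members. The array weights called 482 genes and the authors' deposited calls numbered 815. Equal totals called 154 genes lower and 115 higher, against 178 and 85, and moved the median of all genes to 0.03 on the log2 scale. Leaving out 1 library gave 20 to 523 called genes, 0 to 1 members lower and 0 to 1 higher. The count was 20 without Ikzf4-/- replicate 3, 48 without replicate 1 and 112 without replicate 2, and 75 without WT replicate 2 and 523 without WT replicate 3. These fits have fewer libraries, and for the other changes the cause was not tested. With the replicate block 754 genes were called, and 2 members were lower (Lag3 and Ctla4, adjusted p = 0.0220) and 2 higher (Cd274 and Btla, 0.0427). Across genes, the correlation of deviations from the group means between libraries sharing a number was 0.145, 0.0122 and 0.142, and the number was not treated as a pairing; each library correlated best with its own number except WT replicate 2 and Ikzf4-/- replicate 2.

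Fitted changes near 0 changed sign in some fits. Over the fits without 1 library Icos ran from -0.0913 to 0.0381. With equal totals Lgals9 was at 0.00901, Ptpn6 at 0.0119 and Pik3r1 at 0.0190, and with quantile scaling Ptpn6 was at 0.00627. With 1 library left out, Lgals9 ran from -0.0801 to 0.0256, Ceacam1 from -0.302 to 0.524, Ptpn6 from -0.0801 to 0.0227 and Pik3r1 from -0.0535 to 0.0398. Without 1 library, the log2 ratio difference of Icos to Cd28 ran from -0.0656 to 0.139, of Ctla4 to Cd28 from -0.61 to -0.21 and of Icos to Ctla4 from 0.28 to 0.64. Of the values of members under alternatives, 150 kept direction and side of the threshold, 7 lost the call, 2 gained it and 1 changed sign. Raw-count tests were not run, since the steps of Ikzf4-/- replicates 1 and 3 were not accepted as recovered reads.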
